A study of Mus musculus with 6 samples.

Results

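The 8 genes described here encode proteins that sit beside Lasp1 at actin sites: the zyxin-type LIM proteins Zyx, Lpp, Trip6 and Limd1, the Ena/VASP proteins Vasp, Enah and Evl, and the actin-bundling protein palladin (Palld). They were taken by name, as every probe whose annotated or current gene symbol was one of these, which gave 19 probes for 8 of the 19057 named genes on the array. RNA came from the acid-secreting (fundic) part of the stomach lining of C57Bl/6Ncr mice aged 3 months. It was hybridised to 6 Illumina bead arrays: 3 of Lasp1 knockout mucosa and 3 of wild type mucosa. The design compares the genotypes, to ask how deletion of Lasp1 affects gene expression in this tissue. The labels name no other allele, agent or treatment in either genotype, and the kind of deletion is not given in the sources used here. Whether the 6 arrays came from 6 different animals is not stated either, so p-values measure only the spread between these samples, which may be technical.

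Lasp1 is an actin-binding protein with a LIM domain and an SH3 domain, and it is abundant in parietal cells, the acid-secreting cells of the stomach. Its SH3 domain is known to bind proline-rich stretches of zyxin, palladin and VASP. Zyxin and its relatives carry LIM domains near the carboxyl end and gather at focal adhesions, cell junctions and strained stress fibres. Ena/VASP proteins bind proline-rich repeats of zyxin and lengthen actin filaments by holding off capping proteins, and palladin ties alpha-actinin, profilin and VASP into actin bundles.

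None of the 8 genes differed detectably between Lasp1 knockout and wild type mucosa. The 15 probes bright enough to test gave log2 differences, knockout minus wild type, of -0.16 to 0.47, and 0 of them passed limma at an adjusted p under 0.05. Over the whole array 2 of 22640 tested probes passed, or 0.00883%, so a count of 0 among 15 is near that background. At an unadjusted p under 0.05 there were also 0 of the 15 member probes, beside 1.73% of all tested probes. The 2 probes that passed were both higher in the knockout. Lasp1 itself, the deleted gene, did not pass the adjusted threshold (limma adjusted p = 0.994). A count of 0 at that threshold therefore does not show that the 8 genes were unchanged. By the brightest probe of each gene, the largest averages above wild type were those of Lpp, Limd1 and Palld. These were smaller without 1 wild type array, as given below.

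The targeted gene, Lasp1, read lower in all 3 knockout samples at 2 of its 3 tested probes. The brightest, ILMN_2879746, read 88521, 111002 and 89823 on the knockout arrays, against 270957, 275068 and 177315 on the wild type arrays. The log2 difference was -1.30 (95% interval -1.79 to -0.81, limma adjusted p = 0.994, unadjusted p = 0.000412), and signal well above background remained. The second, ILMN_2879745, differed by -1.59 (limma adjusted p = 0.994). Without wild type replicate 3 this second probe differed by -2.00 and passed (limma adjusted p = 0.0318). The brightest did not pass there (-1.51, limma adjusted p = 0.099), and neither did any of the 15 member probes. The third, ILMN_2596851, overlapped between genotypes at 877, 1156 and 1021 on the knockout arrays and 1483, 970.1 and 1114 on the wild type arrays (log2 difference -0.21), and it exceeded the brightest Y-linked probe on 1 of 6 arrays. Where the probes lie relative to the deleted part is not given in the sources used here. Values are intensities that the authors scaled to a median of 1000 on each array. Background was not subtracted, so folds of dim probes are understated. The brightest of 13 probes for Y-linked genes lay at 1020 to 1212 on the 6 arrays, near the array median, and serves here as a background level. That use assumes that the Y-linked genes were not expressed in these samples, which was not tested.

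Some arrays read far higher than others for markers of certain tissues or cell types. All 9 tested pancreatic acinar markers, of 10 listed, were highest on wild type replicate 3, and their summed intensity was 585554 to 819324 on knockout arrays and 580583 to 5043092 on wild type arrays. All 9 tested smooth muscle markers, of 10 listed, were highest on knockout replicate 1, with sums of 67338 to 302702 on knockout arrays and 51478 to 133070 on wild type arrays. Squamous epithelium markers (9 of 11 tested) were high on knockout replicate 1 and wild type replicate 2. Their sums ranged over 18631 to 992645 on knockout arrays and 14376 to 585526 on wild type arrays. The 8 parietal cell markers summed to 1398240 to 1568130 on knockout arrays and 1381214 to 1501320 on wild type arrays. In whole tissue, fewer cells of a type and less RNA per cell cannot be told apart.

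Zyx encodes zyxin, the founding member of its family and a ligand of the Ena/VASP proteins. Its only probe, ILMN_2514292, read 64467, 49776 and 45671 on knockout replicates 1 to 3, against 48998, 56835 and 32579 on wild type replicates 1 to 3. The groups overlapped, with knockout replicate 1 highest and wild type replicate 3 lowest. The averages were 53305 ± 9882 in knockout and 46138 ± 12378 in wild type mucosa (SD, n = 3 each), a log2 difference of 0.23. Its 95% interval ran from -0.34 to 0.80, which is 0.792 to 1.74 times the wild type level.

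Lpp encodes the lipoma preferred partner, a zyxin relative of adhesions and cell contacts. It had 6 probes, of which 5 passed the filter. The brightest, ILMN_2463260, read 14708, 10792 and 10930 on the knockout arrays, against 11323, 11656 and 5532 on the wild type arrays. Wild type replicate 3 was low, at 48.2% of the other 2 wild type arrays, and the remaining arrays of both genotypes overlapped. The averages were 12143 ± 2222 in knockout and 9504 ± 3444 in wild type mucosa (SD, n = 3 each), a log2 difference of 0.42 (95% interval -0.31 to 1.15). The probes of Lpp did not read alike: the other 4 differed by 0.20, 0.13, 0.47 and -0.14. The probe with the negative value, ILMN_1236954, lay above the brightest Y-linked probe on only 2 of 6 arrays.

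Trip6 encodes a zyxin relative that also binds receptors and nuclear factors. Its brighter probe, ILMN_3009463, read 5351, 2969 and 3649 on the knockout arrays, against 5374, 4156 and 2815 on the wild type arrays. Each genotype held both high and low arrays, so the groups overlapped fully. The log2 difference was -0.04, and the 95% interval of -0.75 to 0.67 corresponds to 0.596 to 1.59 times wild type. The second probe, ILMN_3009469, lay near background (912 to 1191 on knockout arrays and 1061 to 1312 on wild type arrays) and differed by -0.16.

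Limd1 encodes a LIM protein of the same family that binds the LATS kinases of the Hippo pathway. Its brighter probe, ILMN_2615259, read 6879, 6845 and 5006 on the knockout arrays, against 6994, 5254 and 2742 on the wild type arrays. The highest and the lowest array were both wild type. The averages were 6243 ± 1072 in knockout and 4996 ± 2138 in wild type mucosa (SD, n = 3 each), a log2 difference of 0.41 (95% interval -0.40 to 1.22). That interval reaches 2.33 times wild type, the widest bound among the 15 probes tested.

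**Figure D1:**
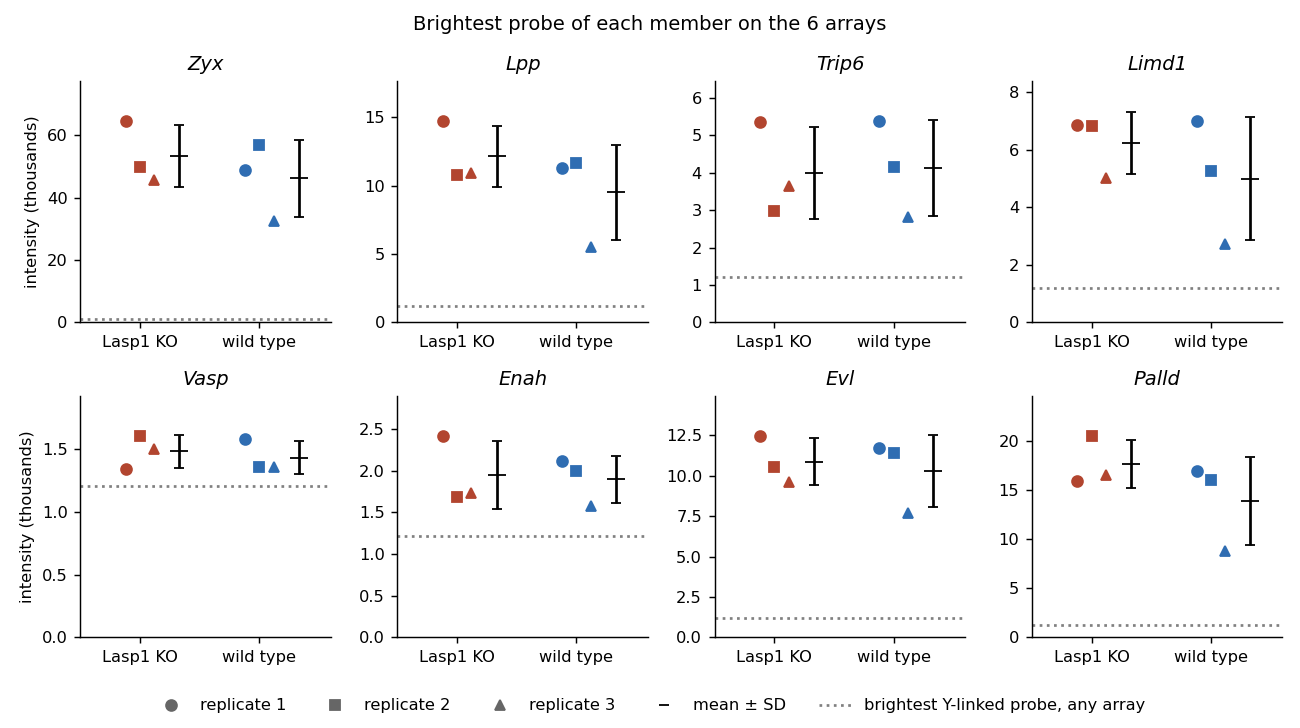
Intensity (linear scale, axis in units of 1000, each panel from 0) of the brightest probe of each member, with 1 point per array, knockout at the left of each panel, and mean ± SD beside the points. The groups overlap in every panel, wild type replicate 3 is the lowest point for 7 of 8 genes, and Vasp lies just above the dotted line at the brightest Y-linked probe (1212).

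Among the Ena/VASP genes, Evl had the clearest signal. It encodes the Ena/VASP-like protein, which promotes filament assembly in epithelia, neurons and lymphocytes. Its probe, ILMN_2731454, read 12461, 10543 and 9606 on the knockout arrays, against 11730, 11440 and 7708 on the wild type arrays. The groups overlapped around wild type replicates 1 and 2, and the averages of 10870 ± 1455 in knockout and 10293 ± 2243 in wild type mucosa (SD, n = 3 each) gave a log2 difference of 0.10 (95% interval -0.38 to 0.57).

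Vasp, the vasodilator-stimulated phosphoprotein and a known partner of Lasp1, read 1342, 1607 and 1503 on the knockout arrays, against 1584, 1356 and 1364 on the wild type arrays (ILMN_1229273). Both genotypes covered the same narrow range, with the lowest and the highest array both from knockout mucosa. Array by array, Vasp stood at 1.13 to 1.46 times the background level set by the Y-linked probes. Its log2 difference was 0.05 (95% interval -0.26 to 0.36) on a scale that understates folds.

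Enah encodes Mena, which binds the proline-rich repeats of zyxin and drives protrusion. Its brightest probe, ILMN_1244697, read 2417, 1687 and 1734 on the knockout arrays, against 2123, 1996 and 1581 on the wild type arrays. The wild type arrays fell inside the knockout range except for replicate 3, and the log2 difference was 0.03 (95% interval -0.43 to 0.48). A second probe, ILMN_2636855, read 1110, 1203 and 1166 on the knockout arrays and 1096, 1068 and 1002 on the wild type arrays. It was the only 1 of the 15 member probes whose groups did not overlap, where 7.19% of all tested probes had separate groups (6.17% with knockout above, 1.02% with knockout below). Its difference was 0.14 on the log2 scale (95% interval -0.13 to 0.40, limma adjusted p = 0.994). An exact permutation test (two-sided) gave p = 0.1, and 3 samples a group allow no smaller value. It exceeded the brightest Y-linked probe on 4 of 6 arrays, so it lay near background.

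Palld encodes palladin, a scaffold of stress fibres whose proline-rich regions bind Lasp1 and VASP. The brightest of 3 probes, ILMN_3092653, read 15941, 20511 and 16578 on the knockout arrays, against 16953, 16006 and 8789 on the wild type arrays. Knockout replicate 2 was highest and wild type replicate 3 lowest, and the other 4 arrays lay between 15941 and 16953. The averages were 17677 ± 2475 in knockout and 13916 ± 4465 in wild type mucosa (SD, n = 3 each), a log2 difference of 0.39 (95% interval -0.24 to 1.03). The second probe, ILMN_1259364, ran alike, at 2751, 3439 and 3127 on the knockout arrays and 3195, 2591 and 1863 on the wild type arrays (log2 difference 0.31). The 4 probes left out as dim, of Lpp, Limd1, Enah and Palld, read 718 to 1041, never above the brightest Y-linked probe, and differed by -0.09 to 0.08.

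**Figure D2:**
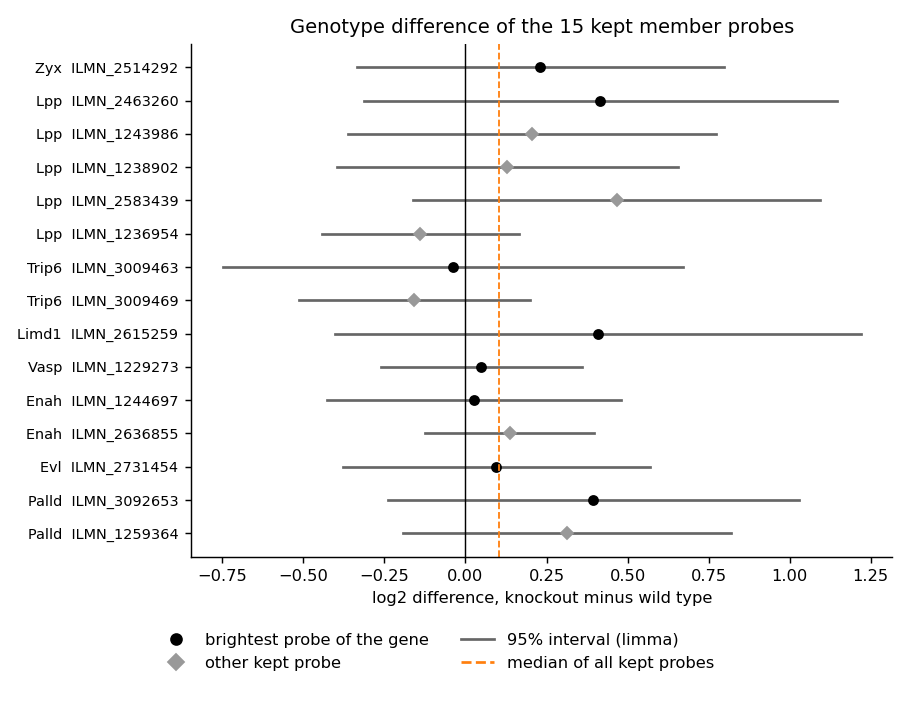
Log2 difference (knockout minus wild type) of the 15 tested member probes, with 95% intervals from limma. All 15 intervals include 0, and the dashed line marks the median of all tested probes at 0.10.

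The array of wild type replicate 3 read low for most of the members. The brightest probe was lowest on that array for 7 of 8 members, all but Vasp. Counted over probes, 12 of the 15 tested member probes were lowest there, beside 64.9% of all tested probes. At the median that array read 64.8% of the other wild type arrays for the 15 probes, and 80.3% for all tested probes. As deposited, 7 of the 8 brightest probes averaged higher in the knockout, with a median log2 difference of 0.16, and 12 of the 15 did, with a median of 0.14. Over all tested probes 76.9% averaged higher, with a median of 0.10.

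Without wild type replicate 3, 4 of the 8 brightest probes and 7 of the 15 averaged higher in the knockout, beside 48.9% of all probes. The differences of the 8 then ran from -0.29 for Trip6 to 0.09 for Palld, and their median was 0.0062, against a median of -0.0039 over all probes. By their brightest probes Lpp then differed by 0.06, Limd1 by 0.03 and Zyx by -0.0013. Another Lpp probe, ILMN_2583439, had the largest difference of the 15 (0.47). It differed by 0.26 without that array, again the highest of the 15, and by 0.35 after quantile normalization. After quantile normalization of the 6 arrays 4 of 8 also averaged higher, with a median of 0.02, and 8 of the 15 did, beside 51.2% of all probes. In that scaling Lpp (0.24), Limd1 (0.26), Palld (0.21) and Zyx (0.05) kept positive differences, and Trip6 (-0.19), Evl (-0.08), Enah (-0.07) and Vasp (-0.02) had negative ones. Wild type replicate 3 held both the highest pancreatic marker sum and most of the lowest member readings, so leaving it out removes both. Summed markers of smooth muscle, squamous epithelium, leukocytes, endothelium, parietal and surface pit cells were lowest there too. Those of fibroblasts, platelets and chief cells were not. The design cannot tell the parts of these apart, and none was tested.

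The array of knockout replicate 1, high in smooth muscle and squamous transcripts, was the highest for the brightest probes of Zyx, Lpp, Enah and Evl. These were 4 of the 15 member probes, near the 26.4% of all tested probes highest there. Without it the log2 difference was 0.09 for Zyx, 0.27 for Lpp, -0.14 for Enah and -0.0071 for Evl. The next highest array was wild type replicate 2, also high in squamous transcripts, for Zyx and Lpp, and wild type replicate 1 for Enah and Evl. The parts of smooth muscle and squamous epithelium in the full differences were not tested. As a group, the 4 zyxin-type genes had a median log2 difference of 0.32 and the 3 Ena/VASP genes of 0.05. Without wild type replicate 3 these medians were 0.01 for the zyxin-type genes and -0.10 for the Ena/VASP genes, and after quantile normalization they were 0.15 and -0.07. The difference between the families was not tested. In a fit that weighted the arrays, 0 of the 15 member probes passed, beside 8.02% of all tested probes, and 3 had an unadjusted p under 0.05, beside 30.6%.

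**Figure D3:**
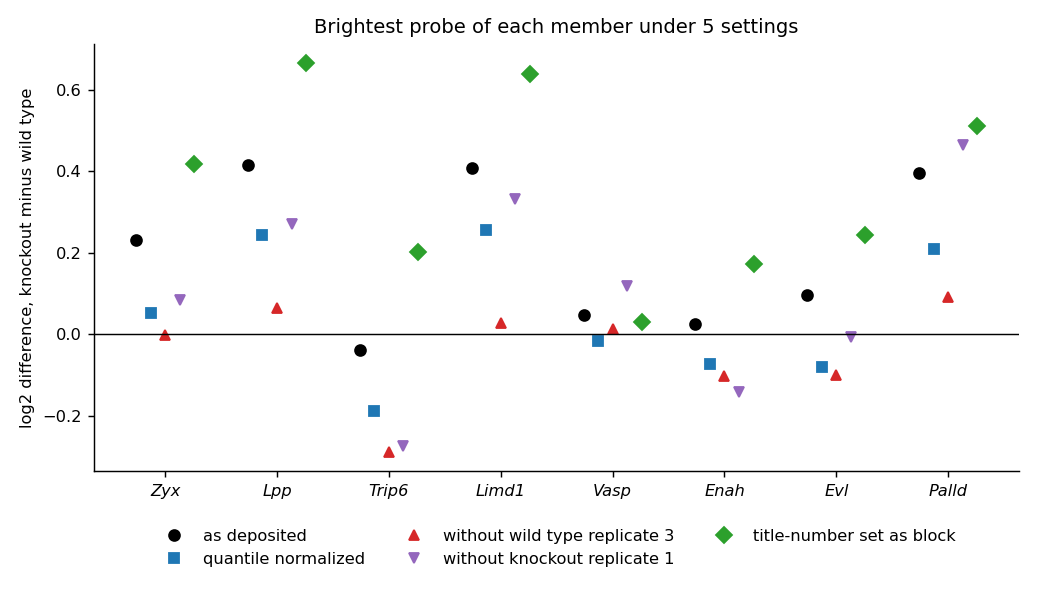
Log2 difference (knockout minus wild type) of the brightest probe of each member under 5 settings, 1 symbol per setting. The red triangles, without wild type replicate 3, lie between -0.29 and 0.09, and the green diamonds, from the fit blocked on title number, lie above 0 for all 8 genes.

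The sample titles also carry a running number, whose meaning the labels do not give. Arrays numbered 1 to 3 (knockout replicate 1, wild type replicates 1 and 2) differed from those numbered 4 to 6 (knockout replicates 2 and 3, wild type replicate 3) in many transcripts. In limma with genotype in the model, 164 of 22640 probes, or 0.724%, passed between the sets, and 28.2% had an unadjusted p under 0.05. Of the 15 member probes 0 passed, and 6 had an unadjusted p under 0.05, each the brightest of its gene. The sizes, numbers 1 to 3 minus 4 to 6, were 0.75 for Lpp, 0.72 for Trip6, 0.69 for Limd1, 0.57 for Zyx, 0.45 for Evl and 0.44 for Enah (limma adjusted p between 0.062 and 0.130). The median over all probes was 0.18. Markers of other tissues followed these sets only in part. Both arrays high in squamous transcripts were numbered 1 to 3 (sums of 992645 and 585526, against at most 21330 on numbers 4 to 6). Wild type replicate 1, number 2, had a squamous sum of only 30715. The 2 highest smooth muscle sums, 302702 and 133070, were on numbers 1 to 3 too. The smooth muscle sums of the sets overlapped, at 83832 on wild type replicate 2 (number 3) and 85160 on knockout replicate 2 (number 4). The 1 array high in pancreatic transcripts was numbered 5. The part of these tissues in the set differences was not tested.

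For Lpp, Trip6, Enah and Evl every array numbered 1 to 3 lay above every array numbered 4 to 6. That is 4 of 8 genes and 4 of the 15 member probes, where 19.3% of all tested probes lay so (22.8% were separate in either direction). Over probes the count is therefore close to that of the whole array. Trip6 averaged 4960 ± 697 on numbers 1 to 3 and 3144 ± 444 on numbers 4 to 6, and Enah 2179 ± 216 and 1667 ± 78.4 (SD, n = 3 each). After quantile normalization the set difference was 0.42 for Lpp, 0.41 for Trip6, 0.37 for Limd1, 0.31 for Zyx, 0.20 for Enah, 0.12 for Evl, 0.02 for Palld and -0.22 for Vasp. In that scaling 3 of the 15 member probes had an unadjusted p under 0.05, beside 25.4% of all probes.

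With the set as a block the genotype differences of all 8 members were above 0, with a median of 0.33. Over the 15 member probes 13 were above 0, with a median of 0.24, against a median of 0.17 over all tested probes. Lpp differed by 0.66 (unadjusted p = 0.00422), Zyx by 0.42 (unadjusted p = 0.0161) and Limd1 by 0.64 (unadjusted p = 0.0364). These were 3 of the 15 member probes, and none passed over all probes (limma adjusted p = 0.399 for each). Among all tested probes 0.0133% passed in that fit, and 12% had an unadjusted p under 0.05. After quantile normalization with the same block Lpp differed by 0.38 (unadjusted p = 0.0117, limma adjusted p = 0.769), Zyx by 0.15 and Limd1 by 0.38, and 4 of 8 members were above 0. Within numbers 1 to 3 the median difference of the 8 was 0.18, beside 0.04 over all probes. Within numbers 4 to 6, where wild type replicate 3 is the only wild type array, it was 0.47, beside 0.29. Each within-set value rests on a single array of 1 genotype and was not tested.

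**Figure D4:**
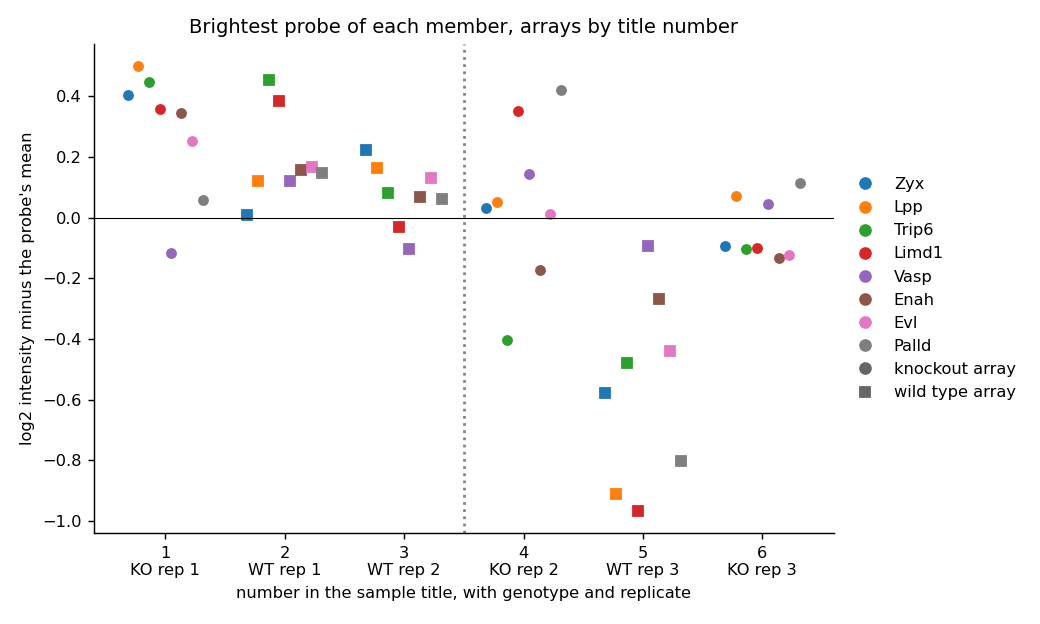
Log2 intensity of the brightest probe of each member minus its mean over the 6 arrays, with arrays placed by the number in the sample title (circles: knockout, squares: wild type). Array 5, wild type replicate 3, is lowest for 7 of 8 genes, and for Lpp, Trip6, Enah and Evl arrays 1 to 3 all lie above arrays 4 to 6.

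The start-site sequences of 7 members were matched by symbol in a RefSeq promoter table (GRCm38.p6), with 11 windows of 250 bases before to 50 after a start. They were searched on both strands for the CArG box, the element bound by serum response factor, which controls many actin-site genes. Only the Trip6 window held one, 1 of 7 genes, beside 6 of 54 genes of the 4 lists described below and 1.81% of 27025 genes in the table. The Trip6 window is shown with its CArG box in capitals, and the Zyx window is shown beside it as a relative of the same family without one. The Trip6 window is chr5:137314192-137314491 on the minus strand and the Zyx window chr6:42349578-42349877 on the plus strand, both printed 5′ to 3′.
Trip6: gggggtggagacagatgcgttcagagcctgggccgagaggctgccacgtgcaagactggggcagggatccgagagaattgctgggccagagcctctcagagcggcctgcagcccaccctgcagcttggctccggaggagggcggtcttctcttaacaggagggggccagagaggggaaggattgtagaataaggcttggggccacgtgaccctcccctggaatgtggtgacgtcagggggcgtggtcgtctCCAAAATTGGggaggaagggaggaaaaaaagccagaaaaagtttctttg
Zyx: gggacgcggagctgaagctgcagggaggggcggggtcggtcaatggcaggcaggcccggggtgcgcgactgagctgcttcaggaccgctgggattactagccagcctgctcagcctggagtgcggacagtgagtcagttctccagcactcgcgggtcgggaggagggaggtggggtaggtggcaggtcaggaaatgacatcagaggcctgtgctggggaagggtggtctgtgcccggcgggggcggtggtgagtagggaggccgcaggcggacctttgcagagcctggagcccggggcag
The box in Trip6 begins at base 252 of the window. A match to these letters is a description of the window, and none of the arrays measured binding there. Vcl and Lima1 of the lists below each held the letters CCTTATAAGG.

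Other genes of the same actin sites were taken from 4 lists, 68 genes in all, of which 47 had a probe that passed the filter. None passed limma in either direction (0 of 47, beside 0.00883% of all tested probes), and 1 had an unadjusted p under 0.05, beside 1.73%. Of the 47, 44 averaged higher in the knockout, with a median log2 difference of 0.20, where 76.9% of all probes averaged higher with a median of 0.10. These 47 are the brightest probes of their genes, while all tested probes reach down to a mean intensity of 991, near background. Wild type replicate 3 was the lowest array for 41 of the 47, beside 64.9% of all tested probes. Without that array 29 of 47 averaged higher, with a median of 0.04, beside 48.9% of all tested probes, with a median of -0.0039.

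The other LIM proteins of actin sites had a median of 0.19 over 16 genes, and all 16 averaged higher. Csrp1, a cysteine-rich LIM protein that binds zyxin and alpha-actinin, read 29643, 27015 and 26106 on the knockout arrays, against 22580, 20068 and 16620 on the wild type arrays. It was the only 1 of the 47 genes whose knockout arrays all lay above the wild type arrays, where 6.17% of all tested probes did. The log2 difference of Csrp1 was 0.49 (SE 0.15, limma adjusted p = 0.994, unadjusted p = 0.0132), and it was 0.37 without wild type replicate 3. Fhl2, a four-and-a-half-LIM protein, differed by 0.49, Pdlim5 by 0.40 and Pdlim7 by 0.40, and none of these passed. Without wild type replicate 3 the list median was -0.02.

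Actin crosslinkers and focal adhesion proteins had a median of 0.19 over 11 genes, all averaging higher. The members of smallest p were Vcl (vinculin, 0.29), Actn4 (alpha-actinin-4, 0.52), Actn1 (0.18) and Flna (filamin A, 0.51). Flna read 6520, 3252 and 2140 on the knockout arrays, against 3482, 2575 and 1748 on the wild type arrays. It was highest on the array with the highest smooth muscle and squamous marker sums. Without wild type replicate 3 Actn4 differed by 0.09 and the list by a median of 0.07.

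The Ena/VASP partners and actin assembly genes had a median of 0.22 over 15 genes, with 13 averaging higher and 2 lower. Pfn1, profilin, which feeds actin monomers to Ena/VASP proteins, read 34575, 47230 and 42509 on the knockout arrays, against 36181, 31661 and 17603 on the wild type arrays. The log2 difference of Pfn1 was 0.59 (SE 0.28), and it was 0.28 without wild type replicate 3. Tmsb10, a thymosin that sequesters actin, differed by 0.52, Wasl (N-WASP) by 0.30 and Wasf2 by 0.24, and none passed. Of 9 further Lasp1 partners and kinases 5 were bright enough to test, with a median of 0.07. Among them Prkaca, the protein kinase A catalytic subunit that phosphorylates VASP, differed by 0.24, Krt18 by 0.22, Vim by 0.07 and Prkg1 by 0.06.

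**Figure D5:**
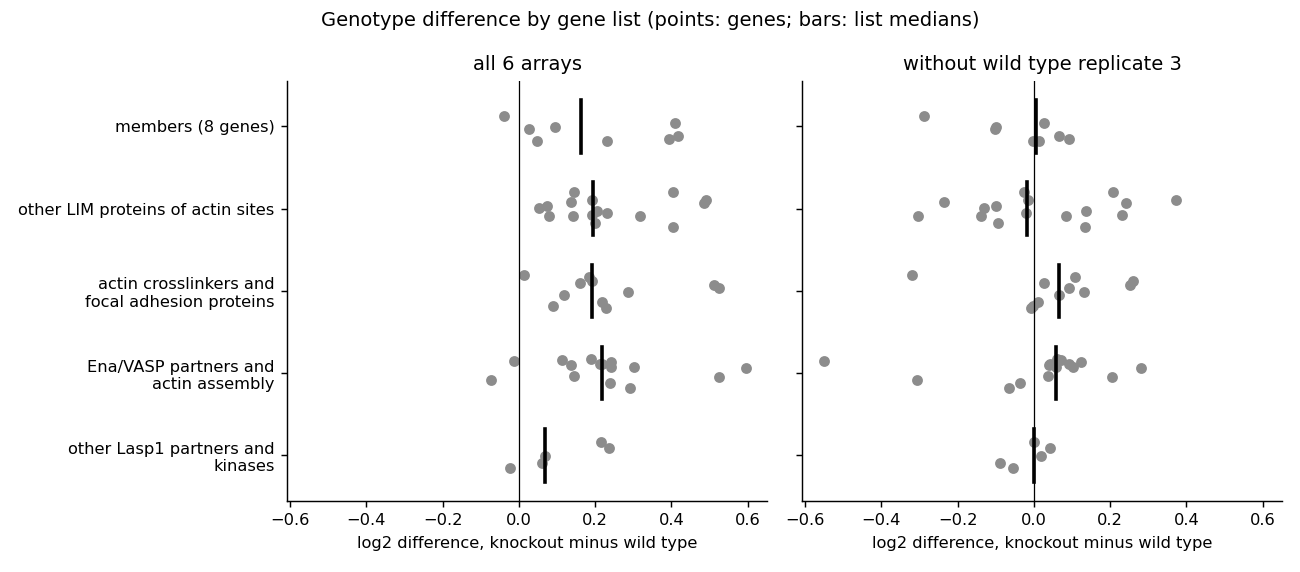
Log2 difference (knockout minus wild type) of each gene by list, with all 6 arrays at the left and without wild type replicate 3 at the right, points for genes and bars for list medians. The median of the 8 members is 0.16 at the left and 0.0062 at the right, and those of the 4 lists run from 0.07 to 0.22 at the left and from -0.02 to 0.07 at the right.

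Over the 6 arrays the members did not all vary together. The log2 levels of Zyx ran alongside those of Lpp (Pearson r = 0.960) and Evl (0.949), less closely with Limd1 (0.834), Enah (0.821), Palld (0.729) and Trip6 (0.708), and not with Vasp (-0.07). By rank the order changed. Spearman rho with Zyx was 0.83 for Lpp and Evl, 0.71 for Enah, 0.60 for Limd1, 0.54 for Trip6, 0.09 for Palld and -0.43 for Vasp. Among 11867 other genes, the 5 closest to Zyx were Cd9, a tetraspanin (0.997), Polr1e (0.997), Acap3 (0.992), H2-Q5 (0.987) and Hnrnpab (0.986). For Palld they were Ywhah, a 14-3-3 protein (0.999), Sertad1 (0.998), Sdf2 (0.998), Atp6ap2 (0.996) and Nupl1 (0.996). The genes closest to Vasp were Chd6 (0.994), Hmgn2 (0.992), Abcb9 (0.986), Bmi1 (0.984) and Spidr (0.983). These coefficients describe 6 arrays that share their scaling and the low readings of wild type replicate 3.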

How the data were processed

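Per the labels' protocols, total RNA of each sample was amplified to biotin-labelled cRNA by an Ambion MessageAmp protocol. The deposited table gives a linear intensity for each of 45281 probes on every array. Judged by its values, the authors scaled each array to a median of 1000 and left background in, and the lowest value is 541.9. No source used here names the scanner or its software. The number of arrays limits the precision.

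Probes were named from the platform annotation (34885 with 1 gene symbol, 18 with several, 10378 with none), and 34807 matched the GRCm38.p6 gene table. Intensities were log2 transformed. The brighter part of the table, 22640 probes with a mean intensity above 991, was tested, which drops every probe at or below the median mean log2 value. Knockout was compared with wild type in limma (version 3.58.1, run under R 4.3.3), using lmFit and eBayes, and two-sided p-values were adjusted over all tested probes by the Benjamini-Hochberg method. The script was tested on simulated data. The brightest probe stands for a gene that has more than 1. All members are named, with Lasp1, up to 4 genes of smallest p per pathway list, and for Zyx, Vasp and Palld the 5 genes of highest Pearson r. Tln2, and the list genes shown for their motif, were picked with their values in view. The members, lists and tests were chosen with earlier results of these data known. Single probes had an exact permutation test (scipy 1.17.1). Alternatives changed the scaling, background, filter, variance model, weights, blocks, probe rule and arrays. After seeing the data, 3 were added: the title-number block after quantile normalization, and leaving out the 2 arrays of highest squamous or of highest pancreatic marker sum. Python 3.11.15 and matplotlib 3.10.9 made the figures.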

Additional observations from a re-analysis of the deposited data

How the results depend on the processing

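No member probe passed limma under any of the 16 alternatives run on probes, and the smallest adjusted p was 0.0576, with array weights. Limd1 and Palld kept a positive difference under all 17 alternatives run on genes. With array weights Zyx (-0.18), Lpp (-0.043), Enah (-0.16) and Evl (-0.13) turned negative, 4 pathway genes passed (Csrp1, Pdlim7, Tln2 and Pfn1) and Lasp1 passed at -1.45 (adjusted p = 0.00222, the lowest of its 17 alternatives). That fit gave wild type replicate 2 a weight of 38.8, far above the other arrays, and 8.02% of all probes passed in it. Vasp, Enah and Evl turned negative after quantile normalization (-0.017, -0.073 and -0.079), with normexp as well (-0.032, -0.11 and -0.084), and with quantile normalization and the title-number block (-0.091, -0.0069 and -0.039). Trip6 was 0.20 with the title-number block. Without both arrays high in squamous transcripts Enah was -0.10 and Palld 0.60, the highest of the 17 alternatives for Palld. In that fit Lpp was 0.46, Limd1 0.42, Zyx 0.26 and Trip6 -0.24. Left out next were the arrays of the 2 highest pancreatic marker sums (wild type replicate 3, and knockout replicate 3 far below it). Enah was then -0.028, Evl -0.015 and Palld 0.13. Leaving out 1 array at a time gave -0.0013 to 0.40 for Zyx, 0.06 to 0.60 for Lpp, -0.29 to 0.18 for Trip6, 0.03 to 0.70 for Limd1, -0.011 to 0.12 for Vasp, -0.14 to 0.12 for Enah, -0.10 to 0.20 for Evl, 0.09 to 0.57 for Palld and -1.51 to -1.19 for Lasp1. The cause of these shifts was not tested. The deviations of arrays with equal replicate numbers had correlations of 0.04, -0.30 and 0.53. An unequal pair, knockout replicate 1 with wild type replicate 2, had 0.55. These values do not settle whether the replicate numbers mark pairs, and the main fit did not pair them. With the replicate block 0 member probes and 0 pathway genes passed, the differences were those of the fit without it, such as 0.23 for Zyx and -1.30 for Lasp1, and the count over all probes was 0 in place of 2. Signal near background limits Vasp and Enah.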
